A study of Mus musculus with 52 samples.

Results

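Mast cells are tissue-resident leukocytes that store serine proteases, histamine and proteoglycans in granules and carry the high-affinity receptor for IgE. Mouse mast cells are usually divided into a mucosal type, which depends on T cells and TGF-β and stores the chymases Mcpt1 and Mcpt2, and a connective tissue type, common in skin, which stores Mcpt4, Cma1, tryptases and carboxypeptidase A3. Both types need the receptor Kit and its ligand for survival, and the genes described here are used in most tissues as markers of these cells. The set comprises 10 genes, namely Mcpt1, Mcpt2, Mcpt4, Cma1, Tpsb2, Tpsab1, Cpa3, Ms4a2, Fcer1a and Kit, out of 27525 genes in the deposited table of 32 tumor libraries. The members were picked by gene name, and the set was chosen on the levels measured across these 4 treatment groups, so that every difference between these groups is given as a description, and counts of members past a threshold stand beside the share of all genes with nothing read from them. All 10 were also found in a second table of 52 libraries with 27894 genes, in which 20 libraries of another experiment offered values that the rule for the members did not use, although earlier results of the whole series were known when the members were chosen.

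Tumors were grown under the skin of male C57BL/6 mice aged 8 to 10 weeks from the KPC line (KxPxCx in the labels), which derives from a pancreatic tumor of engineered mice that carry Trp53 LSL.R172H/+ and Pdx1-Cre, a Cre driver active in pancreatic epithelium. In experiment ST#23, 8 tumors per group stayed untreated (Cont), were injected once with 2 µg ADU-S100, which activates STING (S100), came from mice given the antibody 4H8, an LTβR agonist, into the peritoneum (LTbRAb, 4 doses at 100 µg each), or had both treatments (S100LTbRAb, the combination), and all were collected on day 14. Mast cells in these tumors come from the host, and the injected cells are tumor cells of 1 line. In experiment ST#15, 20 libraries carried the letters A to D with 5 tumors each. The descriptions of these libraries name A as control, B as ADU-S100, C as the anti-LTβR antibody and D as the combination, whereas the treatment field reads combination for all 20, so the letters were compared as letters and no treatment was assigned to them.

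Recovered reads ran from 12762453 to 15591986 per ST#23 library and from 8716257 to 18821793 per ST#15 library, and values are the authors' normalized counts, which for ST#15 are reads divided by 1 size factor per library and for ST#23 come from a table whose values are not whole multiples of 1 step. The ST#15 library D replicate 3 stood apart, with the fewest reads (8716257) and a scaling by which 1 read counts as 3.78 normalized counts. Of the 10 members, 9 passed the filter on low values in combination against untreated tumors and Ms4a2 failed it, while 7 passed in combination against anti-LTβR tumors. In bulk RNA, fewer mast cells and less RNA per mast cell cannot be told apart. Per kilobase of exon in GRCm38, the mean level in untreated tumors was highest for Mcpt1 (451 ± 178 normalized counts per kilobase, SD, n = 8), followed by Mcpt2 (321 ± 136) and Mcpt4 (200.4 ± 82.8). Tpsb2 (156 ± 56.5), Cma1 (115 ± 51.2) and Cpa3 (75.9 ± 26.4) lay lower, and Fcer1a (17.8 ± 6.16), Tpsab1 (16.3 ± 4.90), Kit (12.9 ± 1.35) and Ms4a2 (3.88 ± 1.32) lowest. Neighbours in this order differed by less than the larger of their SDs, apart from Kit and Ms4a2 and the step from Cpa3 to Fcer1a.

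The mucosal chymases were the members with the largest differences between groups. Mcpt1, also called mMCP-1, is a β-chymase of intestinal and other mucosal mast cells. Its normalized count ran from 313 to 885 in untreated tumors (median 415), from 50.9 to 383 after ADU-S100 (median 133), from 16.2 to 169 after anti-LTβR (median 48.8) and from 9.23 to 112 after the combination (median 21.4). Every anti-LTβR and every combination tumor lay below the lowest untreated tumor, whereas 5 of 8 ADU-S100 tumors did. On the log2(value + 1) scale Mcpt1 differed from untreated tumors by -3.86 ± 0.42 (SE) after the combination, -3.16 ± 0.36 after anti-LTβR and -1.49 ± 0.36 after ADU-S100. The combination mean was 11.3 times below the untreated mean.

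Mcpt2 encodes a related mucosal chymase and followed the same order. Its values ran from 216 to 677 in untreated tumors (median 297), from 38.9 to 468 after ADU-S100 (median 110.4), from 12.4 to 109.6 after anti-LTβR (median 33.0) and from 2.93 to 85.3 after the combination (median 14.7). Again no anti-LTβR or combination tumor reached the lowest untreated one, and 6 of 8 ADU-S100 tumors were below it. The differences from untreated tumors were -4.17 ± 0.57 after the combination, -3.27 ± 0.34 after anti-LTβR and -1.35 ± 0.39 after ADU-S100. Mcpt1 and Mcpt2 are paralogs, but no stretch of 50 bases was shared between the GENCODE transcripts of any pair of members. The number of reads for Mcpt1 relative to Mcpt2 was similar among untreated tumors, between 1.12 and 1.59, and ranged from 1.04 to 5.25 in the combination tumors, where both genes were low.

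The chymases of connective tissue mast cells showed smaller differences. Mcpt4, the mouse chymase closest in function to human chymase, lay between 138 and 376 in the untreated group (median 187), and after ADU-S100 between 29.0 and 429 (median 85.4). It lay between 25.8 and 76.4 after anti-LTβR (median 43.1) and ran from 30.8 to 139 after the combination (median 48.0). All anti-LTβR tumors were below the untreated range, as were 7 of 8 combination tumors and 7 of 8 ADU-S100 tumors, with combination tumor 4 inside it by a narrow margin and ADU-S100 tumor 1 above every untreated tumor. Mcpt4 differed from untreated tumors by -1.83 ± 0.32 after the combination, -2.23 ± 0.25 after anti-LTβR and -1.26 ± 0.41 after ADU-S100. Cma1, an α-chymase that also cuts elastin, had medians of 105 in untreated tumors, 42.6 after ADU-S100, 29.5 after anti-LTβR and 30.4 after the combination. Its lowest and highest values were 67.5 and 235 in untreated tumors, 21.0 and 227 after ADU-S100, 7.64 and 39.6 after anti-LTβR, and 13.8 and 93.3 after the combination. The anti-LTβR range lay entirely below the untreated one, the combination range reached into it, and 6 of 8 ADU-S100 tumors were below it. The differences for Cma1 were -1.78 ± 0.38, -2.15 ± 0.30 and -1.10 ± 0.37 in the same order of comparisons.

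The proportion of mucosal to connective tissue chymase was also computed in each tumor. Reads for Mcpt1 relative to those for Mcpt4 had a median of 2.21 in untreated tumors (1.21 to 3.35), 1.65 after ADU-S100 (0.893 to 3.85), 1.09 after anti-LTβR (0.446 to 4.64) and 0.556 after the combination (0.167 to 1.31). In 7 of the 8 combination tumors this ratio was below the lowest untreated value. The sum of Mcpt1 and Mcpt2 over the sum of Mcpt4 and Cma1 had medians of 2.48, 1.70, 1.01 and 0.451 in the same order of groups. The ranges of all 4 chymases overlapped between combination and anti-LTβR tumors.

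**Figure D1:**
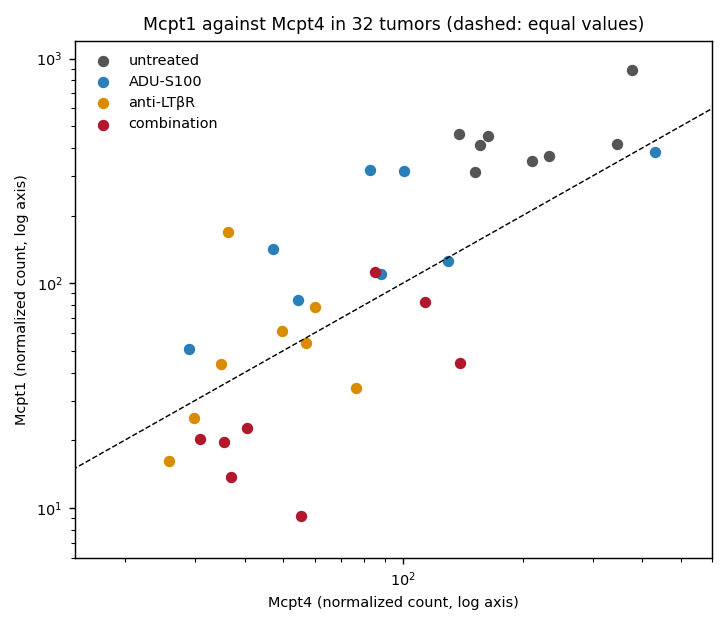
Normalized count of Mcpt1 (vertical, log axis) against that of Mcpt4 (horizontal, log axis) in the 32 ST#23 tumors, 1 point per tumor, colored by group, with equal values on the dashed line. All untreated tumors sit above the line (ratios from 1.21 to 3.35), and all combination tumors but 1 lie below it, with a median ratio of 0.556.

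The 4 chymases lie close together on mouse chromosome 14 (GRCm38), with Cma1 at chr14:55941451-55944675 on the minus strand, Mcpt1 at chr14:56017971-56020384 and Mcpt2 at chr14:56042041-56044642 on the plus strand, and Mcpt4 at chr14:56059629-56062313 on the minus strand. Farther along the same cluster lie the cathepsin G gene and the granzyme genes of lymphocytes. Of the 12 neighbours listed for this cluster, 8 could be tested in combination against untreated tumors, and 1 passed the adjusted p of 0.05 as higher and none as lower, where 19.6% of all 16909 genes tested passed as higher and 23.6% as lower. It was Gzmb, the granzyme of cytotoxic lymphocytes, at 511 ± 129 (SD, n = 8) in untreated and 753 ± 173 in combination tumors (log2 difference 0.56 ± 0.15, limma adjusted p = 0.00794). Ctsg, which mast cells and neutrophils both use, differed by 0.69 ± 0.47 (limma adjusted p = 0.249). Mcpt8, a basophil protease that sits between Mcpt4 and Ctsg, differed by -0.83 ± 0.36 (limma adjusted p = 0.0739) and did not pass.

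The sequences upstream of the chymase genes are shown because Mcpt1 and Mcpt4 differed in their levels between groups while their upstream sequences are close relatives. The RefSeq promoter table used here (GRCm38.p6) was matched for 7 of the 10 members, and the windows of Mcpt2, Tpsb2 and Tpsab1 were not analysed here. The 250 bases before the start of Mcpt1 and of Mcpt4 were 81.0% identical over an alignment of 258 positions, and the next closest pair of members, Mcpt4 and Cma1, 49.3%. Capitals mark matches to a GATA motif, searched on both strands as AGATAA or, likewise, as TGATAA, or else as AGATAG, or finally as TGATAG, the letters bound by Gata1 and Gata2, which drive mast cell genes. Ms4a2 is added because it held 3 matches. Each sequence is given 5′ to 3′ on the strand of its gene.
Mcpt1, chr14:56017714-56017963, plus strand: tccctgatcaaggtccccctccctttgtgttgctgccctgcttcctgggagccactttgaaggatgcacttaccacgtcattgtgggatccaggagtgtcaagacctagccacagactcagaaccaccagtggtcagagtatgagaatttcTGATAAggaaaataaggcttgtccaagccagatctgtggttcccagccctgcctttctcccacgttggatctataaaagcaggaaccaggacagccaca
Mcpt4, chr14:56062311-56062560, minus strand: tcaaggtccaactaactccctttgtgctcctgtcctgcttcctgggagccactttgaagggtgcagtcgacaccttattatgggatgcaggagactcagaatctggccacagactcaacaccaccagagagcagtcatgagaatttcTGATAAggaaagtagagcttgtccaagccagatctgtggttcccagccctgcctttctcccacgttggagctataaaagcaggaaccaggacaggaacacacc
Cma1, chr14:55944676-55944925, minus strand: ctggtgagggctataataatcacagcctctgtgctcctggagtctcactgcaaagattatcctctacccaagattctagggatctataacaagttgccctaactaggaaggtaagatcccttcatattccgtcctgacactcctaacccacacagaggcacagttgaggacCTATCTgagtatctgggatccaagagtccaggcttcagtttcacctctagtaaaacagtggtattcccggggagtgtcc
Ms4a2, chr19:11623720-11623969, minus strand: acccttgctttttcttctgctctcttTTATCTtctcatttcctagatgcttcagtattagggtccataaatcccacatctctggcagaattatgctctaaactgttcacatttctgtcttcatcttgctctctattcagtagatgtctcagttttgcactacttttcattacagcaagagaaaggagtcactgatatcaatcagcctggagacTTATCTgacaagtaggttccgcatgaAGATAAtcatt
The match in Mcpt1 began 99 bases and that in Mcpt4 103 bases before the start, with the same letters in both. Cma1 held 1 match 79 bases before its start, Cpa3 1 at 46 bases and Fcer1a 1 at 92 bases, and Ms4a2 held matches at 224, 37 and 11 bases, while Kit held none in this window. In all, 6 of the 7 windows held a GATA match, against 26.5% of all 32851 RefSeq windows of that length. E-box letters (CANNTG, searched on both strands, and able to overlap a GATA match) occurred in 3 of the 7 members and in 66.2% of all windows. These matches are letters in a window, and no binding was measured.

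The tryptases are neutral proteases of mast cells with trypsin-like specificity, and Tpsb2 encodes the form stored by connective tissue mast cells. Tpsb2 ran from 174 to 450.0 in untreated tumors (median 219), from 44.9 to 336 after ADU-S100 (median 103), from 18.1 to 69.7 after anti-LTβR (median 52.2) and from 25.4 to 106 after the combination (median 42.8). Neither the anti-LTβR nor the combination tumors reached the lowest untreated tumor, and the differences were -2.32 ± 0.24 and -2.29 ± 0.31. Tpsab1, whose transcript carries a splice defect in C57BL/6 mice, was low throughout, from 22.9 to 52.6 in untreated tumors (median 31.0), from 4.99 to 45.2 after ADU-S100 (median 14.9), from 0.955 to 9.65 after anti-LTβR (median 3.13) and from 0 to 15.2 after the combination (median 4.10). Both groups that received the antibody again lay below the untreated range, and 7 of 8 ADU-S100 tumors were below it for each tryptase. The single combination tumor with a count of 0 for Tpsab1 allows up to 3 reads. After ADU-S100 alone, Tpsb2 differed by -1.18 ± 0.30 and Tpsab1 by -1.11 ± 0.32.

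Cpa3, a carboxypeptidase that trims peptides in mast cell granules and is also present in basophils, had the smallest difference among the granule enzymes. Its values ran from 66.2 to 182 in untreated tumors (median 106), from 17.98 to 209 after ADU-S100 (median 57.8), from 11.5 to 51.4 after anti-LTβR (median 38.3) and from 21.7 to 78.4 after the combination (median 36.5). All anti-LTβR tumors were below the untreated range, as were 7 of 8 combination tumors and 5 of 8 ADU-S100 tumors. The differences from untreated tumors were -1.49 ± 0.29 after the combination, -1.67 ± 0.27 after anti-LTβR and -0.92 ± 0.36 after ADU-S100.

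Of the receptors, Fcer1a encodes the IgE-binding chain and Ms4a2 the β chain of the high-affinity IgE receptor. Fcer1a ran from 10.8 to 27.8 in untreated tumors (median 16.3), from 3.93 to 27.6 after ADU-S100 (median 5.98), from 0 to 10.1 after anti-LTβR (median 3.06) and from 2.88 to 10.4 after the combination (median 4.97). Both antibody groups stopped just below the lowest untreated tumor, 6 of 8 ADU-S100 tumors were below it, and anti-LTβR tumors 7 and 8 had a count of 0, which allows up to 3 reads each (counting error only). The differences were -1.61 ± 0.27 after the combination, -2.37 ± 0.45 after anti-LTβR and -1.06 ± 0.33 after ADU-S100. Ms4a2 stayed below the filter, with medians of 10.8, 6.43, 4.11 and 5.33 in untreated, ADU-S100, anti-LTβR and combination tumors and a highest value of 17.1, in a combination tumor.

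Kit, the receptor for stem cell factor, did not follow the proteases. It ran from 100.5 to 131 in untreated tumors (median 112), from 79.5 to 170 after ADU-S100 (median 100.6), from 103 to 152 after anti-LTβR (median 113) and from 134 to 163 after the combination (median 149.8). All 8 combination tumors lay above the highest untreated tumor, by a difference of 0.39 ± 0.08. After anti-LTβR the difference was 0.02 ± 0.09 and after ADU-S100 -0.12 ± 0.13. Reads for Cpa3 relative to those for Kit had a median of 0.951 in untreated and 0.259 in combination tumors. Kit is also carried by melanocytes and other cells, and the summed level of 4 melanocyte genes had a median of 17.3 (5.91 to 71.1) in untreated and 41.7 (16.4 to 99.6) in combination tumors. Whether these cells contributed to Kit was not tested.

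**Figure D2:**
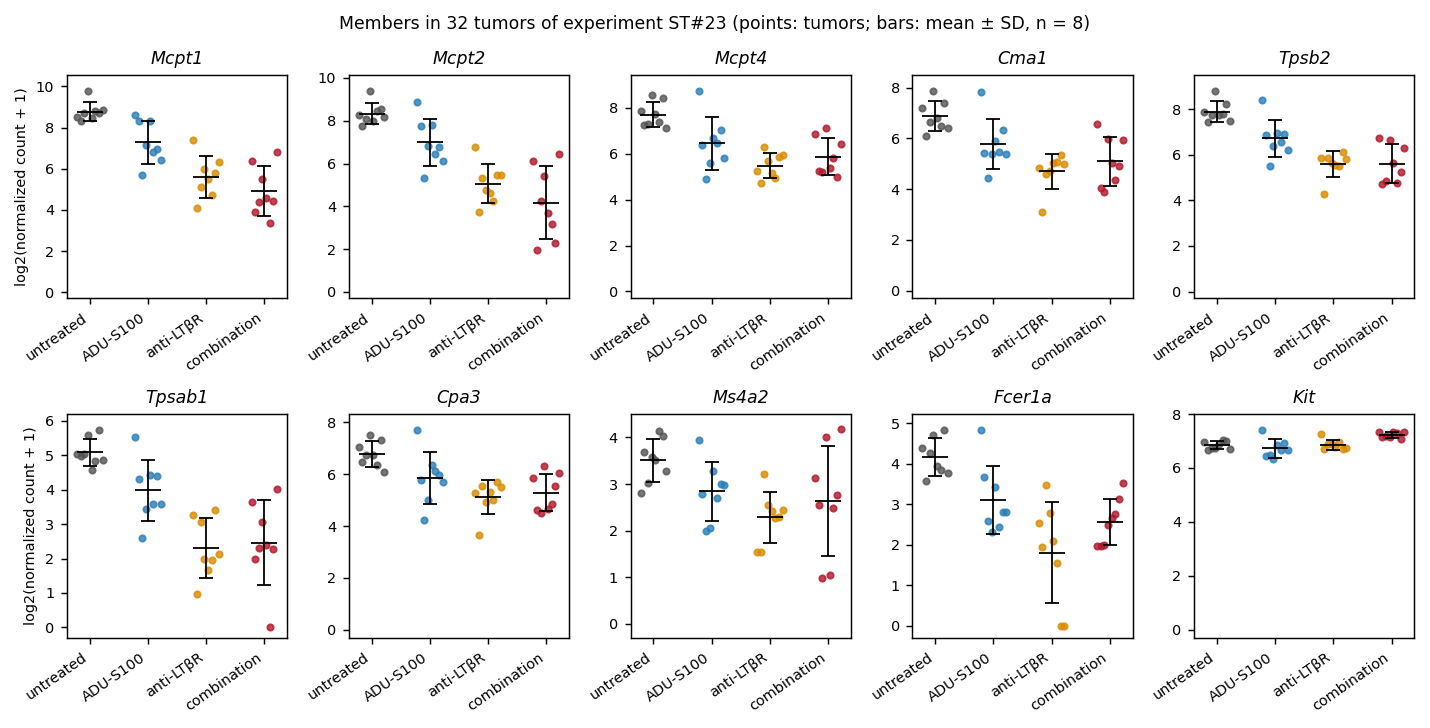
Log2(normalized count + 1) of each of the 10 members (vertical axes) in the 4 groups of ST#23, with 1 point per tumor and bars for the mean ± SD (n = 8). Mcpt1 goes from a median of 415 normalized counts in untreated tumors to 21.4 in combination tumors, and Kit alone is higher in the combination tumors than in all untreated ones.

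Counted over the members that could be tested, 8 of 9 were at least 2-fold lower with a limma adjusted p under 0.05 in combination against untreated tumors, where 0.952% of all 16909 genes tested were. In anti-LTβR against untreated tumors the same 8 of 9 members met this rule, against 0.383% of 16691 genes. In ADU-S100 against untreated tumors 0 of 9 members met the rule, as did 0% of 16613 genes. Because the levels in these 4 groups chose the members, nothing is read from these counts or from those of the other ST#23 contrasts. The median log2 difference of the members that passed the filter was -1.83 for the combination, -2.32 for anti-LTβR and -1.11 for ADU-S100, beside medians over all genes of -0.02, 0.00 and -0.004. Group ranges did not overlap, with the treated group lower, for 5 of 9 members after the combination (6.04% of all genes tested) and for 8 of 9 after anti-LTβR (0.965%), and 1 of 9, Kit, was higher without overlap after the combination (4.64%). These comparisons share the untreated tumors.

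**Figure D3:**
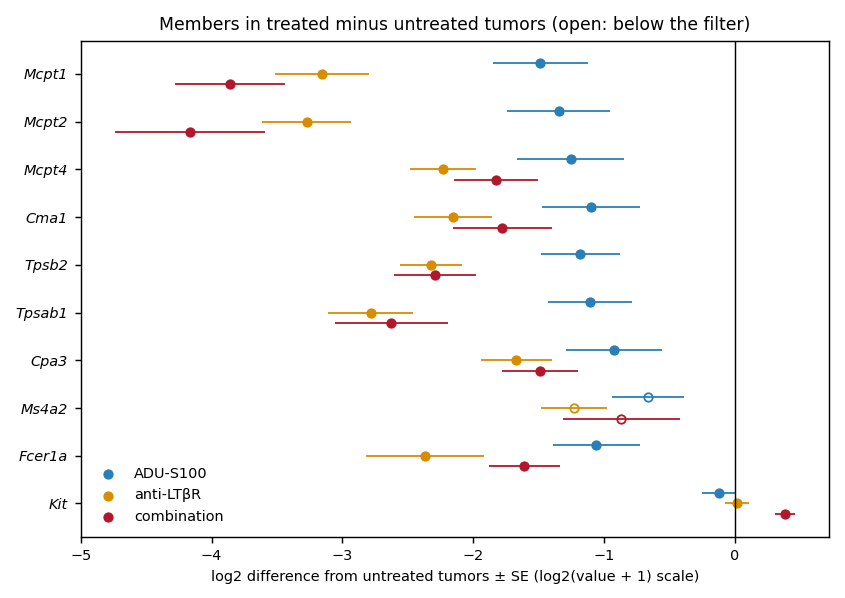
Log2 difference from untreated tumors with its SE (horizontal axis, log2(value + 1) scale) for each member (vertical axis) after ADU-S100, anti-LTβR and the combination, with open symbols for Ms4a2, which was below the filter. Differences run from -4.17 for Mcpt2 to 0.39 for Kit in the combination, and those of ADU-S100 lie between -1.49 and -0.12.

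Adding ADU-S100 to the antibody was examined by setting the combination against anti-LTβR alone. Of the 7 members that passed the filter there, 0 were at least 2-fold lower with an adjusted p under 0.05 (0.148% of 16932 genes). Mcpt1 differed by -0.70 ± 0.52 and Mcpt2 by -0.89 ± 0.63, whereas Mcpt4 differed by 0.40 ± 0.32 and Cma1 by 0.38 ± 0.40, and Kit by 0.37 ± 0.08. Against ADU-S100 alone, 4 of the 8 members that passed the filter were lower by that rule (0.714% of 16811 genes), and nothing is read from either count. The differences there were -2.37 ± 0.52 for Mcpt1, -2.82 ± 0.66 for Mcpt2, -1.11 ± 0.39 for Tpsb2 and -1.52 ± 0.50 for Tpsab1. Mcpt4 and Cma1 differed there by -0.57 ± 0.46 and -0.68 ± 0.46, and without ADU-S100 tumor 1, left out after seeing the data, by -0.24 ± 0.37 and -0.38 ± 0.39.

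Other genes of mast cells were read from lists of genes outside the set. In combination against untreated tumors, 3310 of the 16909 genes tested passed an adjusted p of 0.05 alone as higher (19.6%) and 3995 as lower (23.6%), so a passing gene is common there. Of 9 other granule and amine genes 6 were tested, 2 passed as lower and 1 as higher. Tph1, the enzyme that makes serotonin in mast cells, fell from 29.7 ± 14.1 (SD, n = 8) in untreated to 6.29 ± 4.81 in combination tumors (log2 difference -2.22 ± 0.40, limma adjusted p = 0.000368). Slc18a2, which loads amines into granules, fell less (-0.45 ± 0.17, limma adjusted p = 0.0398, but 0.0611 without a filter on low values), and Ndst2, a heparin-building enzyme used by many cells, rose by 0.23 ± 0.04 (limma adjusted p = 0.000602). Hdc, which makes histamine in mast cells, basophils and some myeloid cells, was at 87.8 ± 28.9 in untreated and 82.9 ± 42.6 in combination tumors (limma adjusted p = 0.611), and Srgn, the granule proteoglycan core of many leukocytes, differed by 0.25 ± 0.14 (limma adjusted p = 0.164).

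After anti-LTβR, 1203 of 16691 genes passed the adjusted p alone as higher (7.21%) and 1352 as lower (8.1%). Of the 6 granule and amine genes tested, 2 passed as lower and none as higher. Tph1 fell to 5.25 ± 3.19 (-2.33 ± 0.34, limma adjusted p = 0.000927), with all 8 antibody tumors below every untreated one, and Hdc fell to 45.0 ± 16.1 (-0.96 ± 0.22, limma adjusted p = 0.0111). For Hdc the combination and anti-LTβR tumors differed by 0.76 ± 0.31, which did not pass (limma adjusted p = 0.0806).

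Among 7 mast cell receptors outside the set, 5 were tested in combination against untreated tumors, with 1 lower and 1 higher. Mrgprb1, a receptor of the Mrgpr family, fell from 16.3 ± 7.02 to 5.85 ± 4.24 (-1.59 ± 0.46, limma adjusted p = 0.0104), and Fcer1g, the signalling chain that macrophages and other leukocytes share, rose by 0.29 ± 0.11 (limma adjusted p = 0.0402, but 0.0542 without the filter). Mrgprb2, the receptor for cationic peptides on connective tissue mast cells, was below the filter. Il1rl1, the receptor for IL-33 on mast cells and some T cells, differed by 0.14 ± 0.18 (limma adjusted p = 0.549). After anti-LTβR, 1 of the 4 receptors tested passed, which was Il1rl1, lower at 62.6 ± 14.8 against 111 ± 25.1 (-0.82 ± 0.16, limma adjusted p = 0.00522). Il1rl1 was higher in the combination than in anti-LTβR tumors by 0.96 ± 0.18 (limma adjusted p = 0.00191).

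The signalling genes downstream of the IgE receptor did not follow the proteases. Of 10 genes tested, 9 rose and none fell in the combination, from Lat (1.03 ± 0.17, limma adjusted p = 0.000191) and Syk (0.64 ± 0.12, limma adjusted p = 0.000395) to Gab2 (0.21 ± 0.06, limma adjusted p = 0.0114). Lyn was the gene that did not pass (0.14 ± 0.06, limma adjusted p = 0.0764). Of the 10, 3 rose after anti-LTβR (Btk, Gab2 and Lat), and each lost its call in some alternative fit. Btk did so under edgeR (adjusted p = 0.0728), and Gab2 and Lat with replicate number as a block (limma adjusted p = 0.0809 and 0.0938). These kinases and adaptors serve many leukocytes, and the pan-leukocyte gene Ptprc had a median of 1777 (1310 to 1861) in untreated and 2565 (2007 to 2952) in combination tumors. Their part in the result was not tested. Among transcription factors of mast cells, 6 of 7 rose in the combination and none fell, including Gata2 (0.57 ± 0.13, limma adjusted p = 0.00215), Mitf (0.76 ± 0.11, limma adjusted p = 6.45e-05) and Tal1 (1.02 ± 0.26, limma adjusted p = 0.00428). Of the 7, 3 rose after anti-LTβR, and among these Ikzf1 and Stat5a lost their calls without the filter (limma adjusted p = 0.0579 and 0.0581). Gata2, Mitf and Tal1 are also used by endothelial, melanocytic or erythroid cells, and 3 endothelial markers summed to a median of 1120 (998 to 1429) in untreated and 1972 (1705 to 2400) in combination tumors. For lipid mediators, 2 of 6 genes rose and 1 fell, with Ltc4s, the leukotriene C4 synthase, higher (1.53 ± 0.34, limma adjusted p = 0.0017), Hpgds, the prostaglandin D2 synthase of mast cells, higher (0.46 ± 0.12, limma adjusted p = 0.0057) and Ptgs1 lower (-0.34 ± 0.10, limma adjusted p = 0.00899). After anti-LTβR, 1 of the 6 passed, again Ltc4s (0.97 ± 0.30, limma adjusted p = 0.0391, but 0.0771 under edgeR and 0.0553 without the filter).

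The growth factors that sustain mast cells were measured in the same tumors. Kitl, which encodes stem cell factor, the ligand of Kit, averaged 647 ± 31.8 (SD, n = 8) without treatment, 636 ± 116 after ADU-S100, 523 ± 54.2 after anti-LTβR and 406 ± 68.9 after the combination. It fell by 0.69 ± 0.10 in the combination (limma adjusted p = 5.59e-05) and by 0.31 ± 0.06 after anti-LTβR (limma adjusted p = 0.00439), and in each case all 8 treated tumors lay below every untreated one. After ADU-S100 alone the difference was -0.04 ± 0.09 (limma adjusted p = 0.829). The combination was also below anti-LTβR alone (-0.38 ± 0.10, limma adjusted p = 0.0148). Of the 7 of 12 growth factors and cytokines that could be tested, 3 fell and 2 rose in the combination, and 2 fell after anti-LTβR. Il10, a cytokine of T cells and macrophages, fell by 0.87 ± 0.19 (limma adjusted p = 0.00141), while Il33 rose by 0.76 ± 0.20 (limma adjusted p = 0.00605) and Tnf by 1.29 ± 0.21 (limma adjusted p = 0.000214). Il4, Il5 and Il13, which T cells and innate lymphocytes make for mast cells, were below the filter.

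TGF-β and the integrins that activate it or hold mast cells in epithelium belong to the mucosal programme, in which TGF-β raises Mcpt1. Of 10 such genes 4 fell and 4 rose in the combination, and 1 fell and 1 rose after anti-LTβR. The gene that rose after anti-LTβR was Tgfb2, which lost its call without the filter on low values (limma adjusted p = 0.0501). Tgfb1 fell from 5957 ± 388 to 4471 ± 477 (-0.42 ± 0.06, limma adjusted p = 0.000109) and Smad3, which carries the signal to the nucleus, from 3608 ± 335 to 2202 ± 260 (-0.71 ± 0.08, limma adjusted p = 1.09e-05), each with all 8 combination tumors below all untreated ones. Tgfb2 rose by 0.84 ± 0.11 (limma adjusted p = 3.57e-05) and the receptor chain Tgfbr2 by 0.45 ± 0.10 (limma adjusted p = 0.00127). Itgb6, the epithelial integrin chain that activates TGF-β, differed by 0.31 ± 0.36 (limma adjusted p = 0.511). The sum of 5 epithelial markers had a median of 20190.5 (15947 to 28939) in untreated and 10597 (6829 to 14654) in combination tumors. Its part in the result was not tested.

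Other cells that use some of the members were followed by their own markers. The summed level of 3 basophil genes had medians of 48.2 (26.6 to 78.3), 39.9 (28.6 to 52.9), 32.4 (21.2 to 54.5) and 36.9 (28.8 to 100.2) in untreated, ADU-S100, anti-LTβR and combination tumors, and that of 4 eosinophil genes 191, 198, 236 and 258. Neither list had a gene at 0 in a whole group of ST#23. RNA of epidermis genes was present in the tumors, with the sum of 5 epidermis genes (Krt5, Krt14, Krt1, Krt10 and Lor) ranging from 2337 to 36789 without treatment (median 12366), from 1147 to 33398 after ADU-S100 (median 4639), from 1559 to 36323 after anti-LTβR (median 4738) and from 1401 to 55016 after the combination (median 19476). Whether this RNA came from attached skin or from tumor cells was not tested. In some groups the tumors with the highest epidermis sums were also the highest for the members. ADU-S100 tumor 1, which had the highest epidermis sum of its group (33398), was the highest of its group for all 10 members, and the 3 combination tumors with the highest epidermis sums (4, 1 and 8) were the highest of their group for all 10 members between them. Untreated tumor 5, with the highest epidermis sum of its group (36789), was the highest for 0 of 10 members. In the anti-LTβR group tumor 3 (36323) led for 3 members, tumor 1 (7979) for 3 and tumor 7, with a lower sum (4342), for 4.

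To see the group differences at a like level of epidermis, the log2 of the epidermis sum was entered as a term in the fit, a choice made after seeing the data. Combination and untreated tumors then differed by -3.99 ± 0.32 in Mcpt1, -4.34 ± 0.44 for Mcpt2, -1.92 ± 0.25 for Mcpt4, -1.56 ± 0.25 for Cpa3 and 0.37 ± 0.07 for Kit. For anti-LTβR against untreated tumors it was -3.02 ± 0.37 for Mcpt1 and -1.99 ± 0.20 for Mcpt4, and for ADU-S100 -1.29 ± 0.36 and -0.80 ± 0.27. In the combination against anti-LTβR the term turned Cma1 from 0.38 to -0.03 ± 0.34 and Tpsb2 from 0.03 to -0.39 ± 0.23, and moved Mcpt1 from -0.70 to -1.23 ± 0.44, Mcpt2 from -0.89 to -1.62 ± 0.49 and Mcpt4 from 0.40 to 0.05 ± 0.26. Against ADU-S100 it moved Mcpt4 from -0.57 to -1.15 ± 0.33, Cma1 from -0.68 to -1.29 ± 0.29 and Cpa3 from -0.57 to -1.05 ± 0.31. Kitl, with the term, was lower in the combination by -0.70 ± 0.10 (limma adjusted p = 5.47e-05).

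Across the 32 tumors, likeness to the members was measured as Pearson's correlation of log2(value + 1) with the mean z-score of the members, as a description over libraries that share groups and tissue. The gene outside the set with the highest value was Tph1 (r = 0.92, rank 6 of 17649 genes with the members included), and the next were Srd5a1 (0.84), Has1 (0.83), Cd2ap (0.83), Lrrc1 (0.82), Mrgprb1 (0.82) and AI661453 (0.82). Kit itself had r = 0.11. With the mean of each group subtracted, Tph1 remained the closest (r = 0.89), and the next 7 were Serpinb2, Stfa2, Lama3, Ripk4, Klk9, Dsg3 and Sfn, with r from 0.80 to 0.84. Dsg3 encodes a desmosomal cadherin of the epidermis. Kit had r = 0.67 within groups. Over the 20 ST#15 tumors, r was 0.84 for Tph1, 0.85 for Mrgprb1, 0.84 for Dsg3 and 0.84 for Lama3, but 0.25 for Srd5a1 and -0.09 for Cd2ap.

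The rule for the members used no ST#15 value, so these tumors were tested. With 5 tumors per letter, no member passed in any of the 4 comparisons under limma on log2(value + 1): 0 of 9 in D against A (1.04% of 15096 genes), 0 of 9 in C against A (0.273% of 15037 genes), 0 of 10 in B against A (0% of 14964 genes) and 0 of 8 in D against C (0% of 15235 genes). DESeq2 on recovered reads passed Mcpt4, Cma1 and Cpa3 as higher in D against A (7.74% of 15391 genes passed as higher), in B against A (1.34% of 15326) and in D against C (1.61% of 15528), with Ms4a2 also in B against A. The limma filter kept Ms4a2 in that comparison alone, through its high values in B, so nothing is read from its call. DESeq2 passed no member in C against A, where 3% of 15264 genes passed in either direction. Tpsb2 passed in both D comparisons with all libraries, but not without D3, at 2.44 ± 0.79 with it and 0.97 ± 0.53 without it in D against A (DESeq2 adjusted p = 0.0247 and 0.202). The other 3 genes still passed without D3 in D against A (7.46% of 15751 genes) and in D against C (1.74% of 15904), a setting added after seeing the data.

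Mcpt1 values in ST#15 were 240, 117, 412, 200.2 and 424 in A, 153, 362, 1055, 517 and 266 in B, 288, 70.1, 88.4, 119 and 138 in C, and 136, 400.5, 1005, 45.7 and 136 in D. The C tumors were low except the first, and the B and D tumors were spread over the whole range, so that all letters overlapped. The value of 1005 in D3 rests on 266 recovered reads, and that of 1055 in B3 on 1247. Mcpt1 differed by -1.01 ± 0.44 in C against A (limma adjusted p = 0.286), by -0.30 ± 0.72 in D against A (limma adjusted p = 0.805) and by 0.60 ± 0.50 in B against A (limma adjusted p = 0.661). Mcpt2 values were 143, 132, 267, 172.2 and 418 in A, 183, 303, 977, 375 and 326 in B, 199.9, 25.8, 56.6, 74.7 and 60.4 in C, and 95.6, 272, 298, 52.3 and 213 in D. Here 4 of 5 C tumors lay below all A tumors, and the difference was -1.60 ± 0.50 (limma adjusted p = 0.187). In D against A it was -0.41 ± 0.52 (limma adjusted p = 0.627).

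The connective tissue chymase showed another order of letters. Mcpt4 was at 89.7, 106, 99.9, 87.4 and 282 in A, 1400.4, 293, 1648, 293 and 266 in B, 217, 39.5, 93.9, 78.2 and 38.8 in C, and 123, 632, 619.5, 1354 and 291 in D. In B and in D 4 of 5 tumors exceeded every A tumor, led by B1, B3 and D4. The differences were 2.22 ± 0.58 in B against A (limma adjusted p = 0.613), 1.93 ± 0.59 in D against A (limma adjusted p = 0.131), -0.64 ± 0.49 in C against A (limma adjusted p = 0.517) and 2.57 ± 0.66 in D against C (limma adjusted p = 0.341). Cpa3 was at 43.4, 64.5, 88.1, 63.8 and 156 in A, 933, 143, 1010.1, 195 and 135 in B, 91.2, 11.3, 38.7, 18.9 and 25.2 in C, and 77.4, 309, 178, 929 and 265 in D. It too was highest in B1, B3 and D4, and 4 of 5 C tumors were below all A tumors (-1.36 ± 0.52, limma adjusted p = 0.247). For D against A it differed by 1.73 ± 0.59 (limma adjusted p = 0.16).

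The remaining members are given by their ranges. Cma1 ran from 49.4 to 236 in A, 188 to 1016 in B, 30.6 to 141 in C and 73.0 to 832 in D. Tpsb2 ran from 123 to 355 in A, 234 to 1029 in B, 36.2 to 148 in C and 100.8 to 2803 in D, where the highest value came from D3, the library that stood apart. Tpsab1, too, had its highest normalized count in D3 (178), which rests on 47 recovered reads in the library with the largest scaling. B3 was next (80.4), on 95 reads. Ms4a2 was at 1.89 to 11.4 in A and at 13.4 to 77.0 in B (2.23 ± 0.59, limma adjusted p = 0.613). It passed the filter in B against A alone, through the high values of B. It failed the filter in D against A (exact permutation test over 252 splits, two-sided p = 0.262), in C against A (exact permutation p = 0.968) and in D against C (exact permutation p = 0.341). Fcer1a ran from 12.6 to 43.0 in A, 28.4 to 111 in B, 2.70 to 30.4 in C and 7.55 to 58.0 in D, and in D against C the exact permutation p was 0.0952. Kit ran from 72.7 to 148 in A, 115 to 389 in B, 40.1 to 170 in C and 22.7 to 503 in D, with the lowest value in D3. It differed by 0.82 ± 0.36 in B against A (limma adjusted p = 0.613), -0.11 ± 0.37 in C against A (limma adjusted p = 0.888) and 0.10 ± 0.67 in D against A (limma adjusted p = 0.934).

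**Figure D4:**
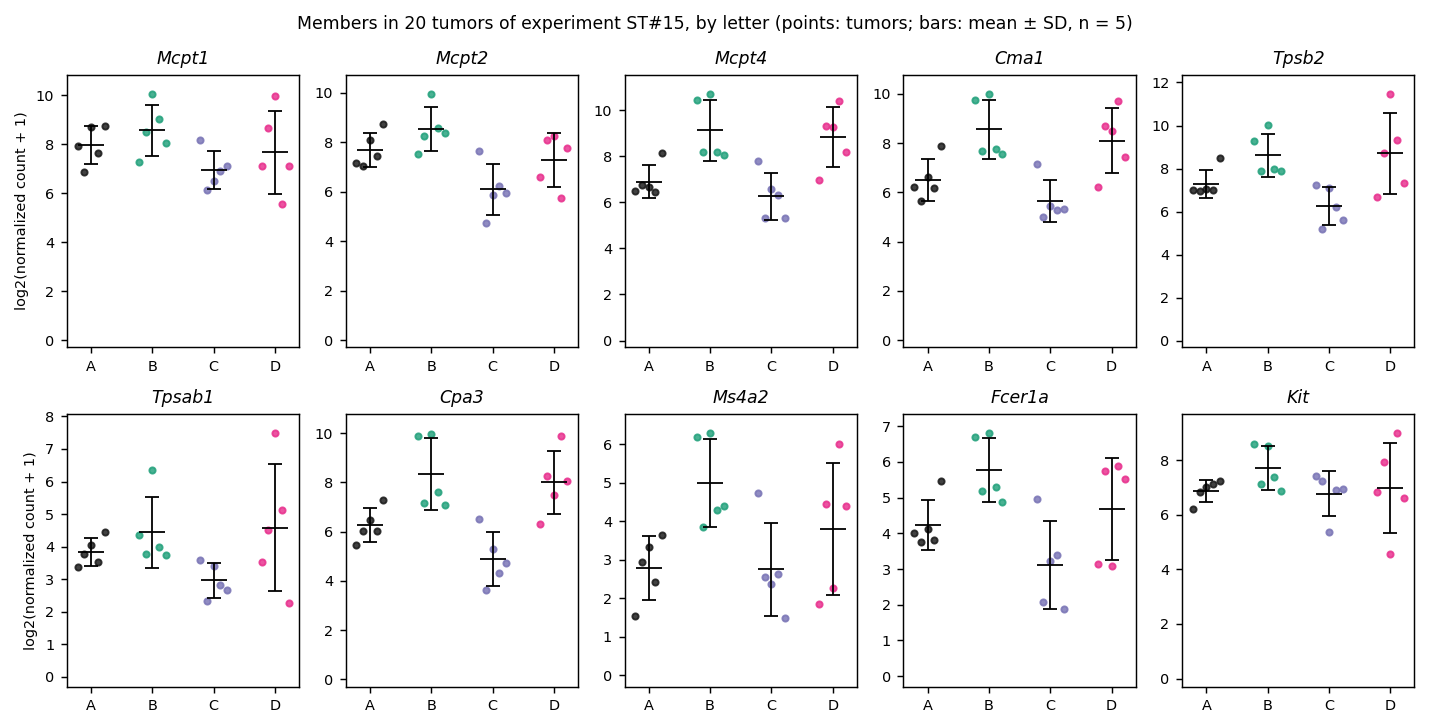
Log2(normalized count + 1) of each of the 10 members (vertical axes) in the tumors of ST#15 by letter A to D, with 1 point per tumor and bars for the mean ± SD (n = 5). Mcpt4 reaches 1648 in B and 1354 in D against at most 282 in A. In C, tumor C1 is the highest for all 10 members, and no member passed in C against A.

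B1, B3 and D4, which led in Mcpt4 and Cpa3, also had high epidermis sums. The epidermis sum was 27967 in B1, 25215 in B3, 15049.8 in D2, 35123 in D3 and 34260 in D4, against 307 to 2004 in A and 259 to 3048 in C. B2 and B4, both at 293 for Mcpt4 and so above every A tumor, had sums of only 2327 and 2619. D5, with Mcpt4 at 291 and Cpa3 at 265, had a sum of 8346. B1 and D4 also had the highest melanocyte sums of the 20 tumors (929 and 1225) and high adipocyte sums (5437 and 3039, against 52.9 to 439.9 in A). In B1 and D4 reads for Mcpt1 relative to Mcpt4 were 0.109 and 0.0338, the lowest of all 52 libraries. Mcpt1 was at 1055 in B3, on 1247 reads, and at 1005 in D3, on 266 reads. Each read of D3 counts as 3.78 normalized counts, so its Mcpt1 level and its epidermis sum both carry that scaling. The epidermis sums of D (2518 to 35123) and A did not overlap, so the letter and the epidermis sum cannot be told apart in D against A. In A and C, where the epidermis sum was low, reads for Mcpt1 relative to Mcpt4 ran from 1.11 to 4.13 and from 0.941 to 3.56.

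With the epidermis term in the fit, an extrapolation for D against A because no tumors share a sum there, that comparison gave -0.50 ± 0.71 for Mcpt4 and 0.01 ± 0.95 for Cpa3 (limma adjusted p = 1.00 for both). B against A, whose sums overlapped only from 1910 in B to 2004 in A, gave 0.61 ± 0.39 for Mcpt4 and 0.45 ± 0.49 for Cpa3. C against A was nearly as without the term, at -0.99 ± 0.42 for Mcpt1 (limma adjusted p = 0.325), -1.57 ± 0.40 for Mcpt2 (limma adjusted p = 0.156) and -1.33 ± 0.40 for Cpa3 (limma adjusted p = 0.209). Without C3 and D3, a choice also made after seeing the data, D against A differed by 1.81 ± 0.61 in Mcpt4 (limma adjusted p = 0.0847), by 1.86 ± 0.61 in Cpa3 (limma adjusted p = 0.0772) and by 0.72 ± 0.53 in Tpsb2 (limma adjusted p = 0.398), which with all libraries differed by 1.41 ± 0.76 (limma adjusted p = 0.300). Tpsab1 differed by 0.75 ± 0.82 with all libraries (limma adjusted p = 0.571) and by 0.02 ± 0.56 without C3 and D3 (limma adjusted p = 0.982). C against A then differed by -1.54 ± 0.53 in Mcpt2 (limma adjusted p = 0.132). Kitl was at 793 ± 30.7 (SD, n = 5) in A, 738 ± 55.1 in B, 471 ± 142 in C and 470.4 ± 301 in D. All 5 C tumors lay below every A tumor (-0.81 ± 0.21, limma adjusted p = 0.131), and in D against A the difference was -1.32 ± 0.71 (limma adjusted p = 0.297).

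**Figure D5:**
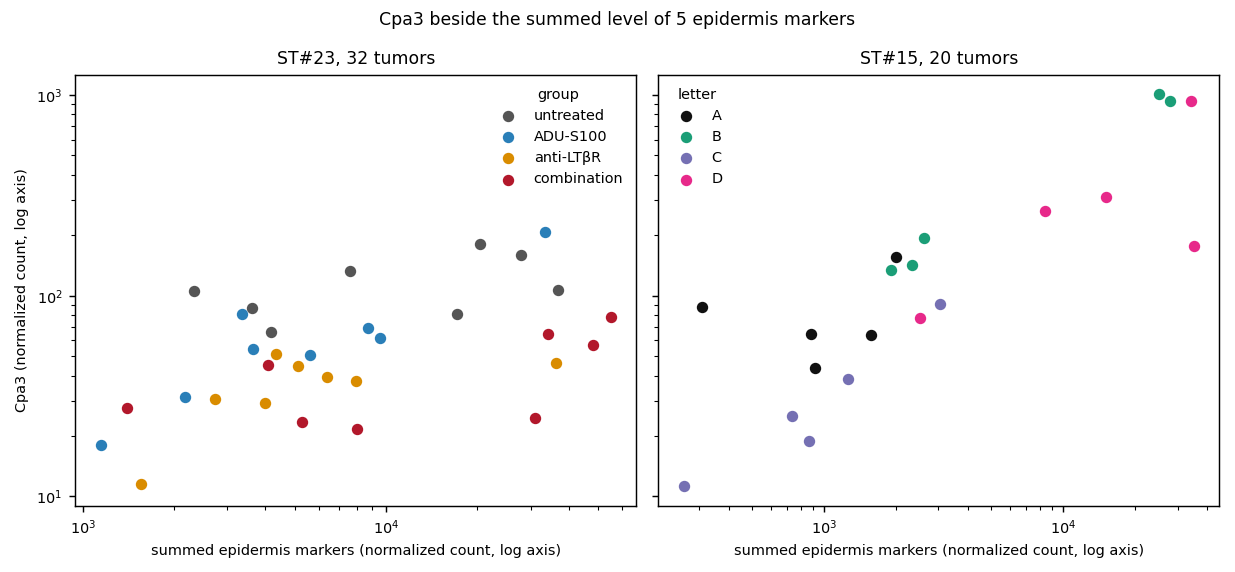
Normalized count of Cpa3 (vertical, log axis) beside the sum of 5 epidermis markers (horizontal, log axis) in the 32 tumors of ST#23 by group and the 20 tumors of ST#15 by letter, 1 point per tumor. In ST#23 the combination tumors reach an epidermis sum of 55016 with Cpa3 at most 78.4, and in ST#15 B1, B3 and D4, with sums from 25215 to 34260, have Cpa3 from 929 to 1010.1, while D3, with the highest sum of ST#15 (35123), has Cpa3 at 178. Both values of D3 carry its scaling, by which each read counts as 3.78 normalized counts.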

How the data were processed

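RNA was sequenced from single, unpooled subcutaneous KPC tumors as polyA-selected libraries whose preparation marked the strand. The submitters' processing notes name cutadapt 1.9, FastQC, HISAT2, StringTie, STAR, Partek, DESeq2 and edgeR and the build mm39. The study's methods and its reporting summary name different aligners, and which of them made each table was not settled. The deposited values are a signal, namely normalized counts made by the authors in 2 tables, and how the table of 32 ST#23 libraries was scaled is not given in the sources used here. Whole reads were recovered from the steps of these values in the table of 52 libraries (100% of values whole in each library, within 0.02 of a read plus 2e-05 of the count), and they give the depth. In 16 of the 52 libraries a step lay within 0.02 of 1. The authors' own table of gene set enrichment was not used.

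Genes were kept by filterByExpr (minimum count 10, edgeR 4.0.16), and log2(value + 1) was tested with limma 3.58.1 (trend, two-sided, R 4.3.3) within pairs of groups, with Benjamini-Hochberg adjustment over all genes tested. A gene was called at an adjusted p under 0.05 and at least 2-fold. A fold change on this scale understates the change of low genes. Alternatives were a joint fit of all groups, other pseudocounts and filters, edgeR and DESeq2 1.42.0 on recovered reads, a replicate block and, for ST#15 alone, leaving out each replicate. Other calculations used Python 3.11.15. The tables were normalized separately, so ST#15 and ST#23 levels are not compared by a test.

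The members and all gene lists were chosen with earlier results of these data known. Named genes were all 10 members, the first 2 genes of each list with up to 6 others called in combination against untreated tumors, Ptprc, and the 8 genes most like the members. Genes named outside this rule were chosen after their values were seen. Each sample is a tumor by its label, and p-values measure the spread between these tumors. An allele of the tumor line and single genes that these rules name are not reported here.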

Additional observations from a re-analysis of the deposited data

Results flagged for a closer look

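In 28 of 80 member-by-group sets the highest tumor lay farther from the others than Dixon's 95% limit. Chance flags about 1 in 20 for normally spread values. The rule was run on normalized counts and not on their log2, so this rate need not hold, and members of 1 tumor are not independent. ADU-S100 tumor 1 stood out for 8 members, with Mcpt2 at 468, Mcpt4 at 429, Cma1 at 227, Tpsb2 at 336, Tpsab1 at 45.2, Cpa3 at 209, Fcer1a at 27.6 and Kit at 169.9. Untreated tumor 4 stood out for Mcpt1 at 885, Mcpt2 at 677 and Tpsb2 at 450.0. Anti-LTβR tumor 1 stood out for Mcpt1 at 169, Mcpt2 at 109.6 and Kit at 152, and anti-LTβR tumor 3 for Ms4a2 at 8.29. In ST#15, A5 stood out for Mcpt4 at 282, Cma1 at 236, Tpsb2 at 355 and Fcer1a at 43.0. B3 did so for Mcpt2 at 977 and Tpsab1 at 80.4, and C1 for Mcpt2 at 199.9, Cma1 at 141, Ms4a2 at 25.8 and Fcer1a at 30.4. D3, the library with the fewest reads, did so for Tpsb2 at 2803 and Tpsab1 at 178, and D4 for Cpa3 at 929.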

How the results depend on the processing

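Over the alternatives run, the members' differences in ST#23 kept their direction in 349 of their settings and turned in 4, all with the epidermis term, which was added after seeing the data, as was leaving out C3 and D3 of ST#15, D3 under DESeq2, or ADU-S100 tumor 1. Those 4 were Kit after ADU-S100 (0.0029) and, in the combination against anti-LTβR, Cma1 (-0.026), Tpsb2 (-0.39) and Cpa3 (-0.13). The counts of genes called moved as follows. ADU-S100 against untreated tumors had 0 (2408 at an unadjusted p under 0.05), and 1 in the joint fit, under DESeq2, under edgeR and with the replicate block. Without a filter on low values, anti-LTβR went from 173 to 330, the combination against ADU-S100 from 1038 to 1590 and against untreated tumors from 1034 to 1638. B against A had 0 (1105 unadjusted), 0 under edgeR, 208 under DESeq2, and 0 to 1 leaving out each replicate. C against A had 41, with 23 in the joint fit, 458 under DESeq2, 18 under edgeR, 25 with the epidermis term, 137 without C3 and D3, and 0 to 137 leaving out each replicate, highest without C3 and 0 without A1, A2 or A4. D against A had 157, with 40 in the joint fit, 1361 under DESeq2 (1305 without D3), 0 with the epidermis term (362 unadjusted), 697 without C3 and D3, and 1 to 697 leaving out each replicate, highest without D3 and lowest without A2. D against C had 0 (551 unadjusted), 0 under edgeR and 266 under DESeq2 (303 without D3). Without ADU-S100 tumor 1, ADU-S100 against untreated tumors had 0 (2846 unadjusted) and the combination against ADU-S100 1141. Of the 8 genes most like the members, 1 stayed among the 8 on deviations from group means. The cause of these changes was not tested.

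With the replicate block, C against A had 4 calls, D against A 41 and the combination against untreated tumors 1024. Same-numbered tumors had a mean correlation of deviations between -0.0867 and 0.275, with a negative minimum in all comparisons but D against C, so the numbers were not taken as pairing.

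With the epidermis term, B against A, whose epidermis sums overlap little between the letters, turned for Tpsab1 (-0.28) and Kit (-0.083). D against A, whose epidermis sums do not overlap between the letters, turned for Mcpt4 (-0.50), Cma1 (-0.76), Tpsb2 (-1.75), Tpsab1 (-1.63), Fcer1a (-0.61) and Kit (-0.036). D against C, whose sums overlap only from 2518 in D to 3048 in C, turned for Mcpt1 (-0.57), Mcpt2 (-0.14), Mcpt4 (-0.31), Cma1 (-0.21), Tpsb2 (-0.94) and Tpsab1 (-1.02). Kit in C against A turned under edgeR (0.035), under DESeq2 (0.025) and without C3 (0.25). Kit in D against A turned without A1 (-0.07), D2 (-0.13) or D4 (-0.40), its range being -0.40 to 0.71, and in D against C without C3 (-0.14), D2 (-0.026) or D4 (-0.29), its range being -0.29 to 0.82. Mcpt1 in D against A turned under edgeR (0.37), under DESeq2 (0.47) and without D4 (0.23), with -0.87 as its lowest value, without D3. Mcpt4 in D against A passed without D1 (limma adjusted p = 0.037). Over 2 comparisons, genes of the lists outside the set lost their call in 27 settings and gained one in 18. Slc18a2 and Fcer1g in the combination lost it without the filter and with the replicate block (adjusted p = 0.077 and 0.092 with the block). After anti-LTβR Ltc4s and Btk lost it in 4 and 5 settings, Gab2 with the block and Lat with the block and with the epidermis term. Ctsg gained a call under DESeq2, and Lyn in the joint fit and with the epidermis term. Of other genes, C3ar1 (-0.0016 under edgeR, -0.0063 with the epidermis term), Gata2 (-0.0038 under edgeR, -0.0047 under DESeq2), Il6 (0.092) and Ptgs2 (0.050, both with the epidermis term) and Itgb6 (0.064 under edgeR, 0.066 under DESeq2) turned after anti-LTβR. In the combination Gzmd (0.038 under edgeR, 0.046 under DESeq2) and Gzmg (0.21 under both) turned. At 5 tumors per letter and with single libraries moving the counts this far, ST#15 limits what could be detected.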

Other observations

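Summed markers of other cells, given without a test, moved between the ST#23 groups as well. The sum of 3 fibroblast genes (Col1a1, Pdgfra and Dcn) had medians of 41348 without treatment, 36233 after ADU-S100, 46282 after anti-LTβR and 129865 after the combination, where every tumor (60917 to 219208) lay above the highest untreated one (60513). The sum of 3 macrophage genes had medians of 5697, 6097, 7428 and 9668 in the same order, and that of 4 T cell genes 581, 672, 950.0 and 1173. Skeletal muscle genes varied widely within each group, with medians of 7270 (4685 to 102813), 69503 (5865 to 191424), 90103 (5601 to 137988) and 82886 (5481 to 296662) for the same groups. These ranges overlapped, and the part of muscle in the members' differences was not tested. The 3 adipocyte genes had medians of 326, 394, 446 and 481.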
